A study of Mus musculus with 6 samples.

Results

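The growth hormone and IGF axis of the liver was followed in 10 genes, all of them measured, out of 22180 genes in the table. They were chosen by symbol, and each was read from the probe set whose single annotated symbol was that gene. Socs2 and Cish each had 2 such probe sets, of which the one with the higher mean over all arrays was taken. The series holds 6 one-colour Affymetrix arrays of whole liver RNA from male mice aged 20 weeks, 3 arrays from Balb/c and 3 from Balb/cBy. All mice, of either substrain, lived in individual cages and ate a high-fat diet (58% of energy as fat) for 12 weeks, beginning when they were 8 weeks old. No other genotype, agent or diet enters the comparison. Without a group on another diet, a substrain difference cannot be told apart from a difference in how the substrains respond to this diet. By their labels, replicates within a substrain are biological. The supplier of the mice and the feeding state at sampling are not given in the labels.

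None of the 10 genes passed the test between substrains, and most of their variation lay between mice of the same substrain. Socs2, which encodes an inhibitor of growth hormone signalling, had the largest difference, 1.19 higher in Balb/cBy on the log2 scale (SE 0.47, n = 3 each). That difference rested largely on Balb/cBy replicate 2 and on the probe set taken. Igfbp1, an IGF binding protein under insulin control, ranged 8.49-fold from the lowest to the highest mouse, and it varied widely within each substrain. Igf1, Igfals and Cish had positive differences of 0.12 to 0.30, and Ghr a difference of -0.24, each with an unadjusted 95% interval that includes 0. Without Balb/cBy replicate 2 the differences of Igf1, Igfals and Cish were 0.16, 0.0036 and 0.03. That of Ghr was 0.0144 without Balb/c replicate 3.

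Growth hormone reaches the liver in pulses and binds its receptor, GHR, which activates the kinase JAK2 and the transcription factor STAT5B. STAT5B in turn drives Igf1, Igfals, Socs2 and Cish. IGF1 leaves the hepatocyte and circulates mostly in a complex with IGFBP3 and the acid-labile subunit that Igfals encodes, while other binding proteins hold smaller pools. SOCS2 and CISH feed back on the receptor, and Igfbp1 is held down by insulin through FOXO1.

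Promoter sequence around the annotated start was looked at for the sites through which these inputs are known to act. RefSeq's promoter table (build GRCm38.p6) held 14 windows for 9 of the 10 genes, each running from 250 bases before a start to 50 bases after it, and Socs2 was not matched. The STAT5 consensus TTCNNNGAA, which reads the same on both strands, was found in 3 of these 14 windows, belonging to Cish and Igfals, and in 8.3% of all 32851 windows. The 2 matches of Cish lie side by side, just after the start (chr9:107296654-107296683, plus strand). The Igfals matches lie before 2 of its starts (chr17:24877598-24877626 and chr17:24878163-24878191, plus strand). In the stretches below, capitals mark the consensus.

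Cish: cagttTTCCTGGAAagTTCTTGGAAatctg
Igfals, upstream match: gatctataatTTCTCAGAAaagaggctga
Igfals, downstream match: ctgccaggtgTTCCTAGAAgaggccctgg

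The Igfbp1 window holds the insulin response sequence known from this promoter, shown because Igfbp1 was the most variable gene of the axis. Its core CAAAACA, searched on both strands, begins at position -108 from the start and was present in 6.28% of all windows. The related core CAAAATA lies on the other strand and was present in 4.36%. The pair, facing each other with 4 bases between them, was found in 1 of 32851 windows, that of Igfbp1. The pattern and its spacing were set to the sequence known from this promoter, so a match there was fixed in advance. The 250 bases before the start (chr11:7197537-7197786, plus strand) are given with both cores in capitals.

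Igfbp1: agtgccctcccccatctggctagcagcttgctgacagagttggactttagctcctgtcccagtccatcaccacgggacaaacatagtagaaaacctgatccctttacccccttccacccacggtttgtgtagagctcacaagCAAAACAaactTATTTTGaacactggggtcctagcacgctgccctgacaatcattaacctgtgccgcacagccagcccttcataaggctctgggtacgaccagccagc

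A match is a description of the letters, not evidence that a factor bound there in these livers. Sequence outside the windows was not searched, so a gene without a match may hold sites elsewhere.

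Values are log2 RMA values per probe set. Differences are Balb/cBy minus Balb/c from a limma fit over all genes, with the moderated standard error (SE), and p-values carry the Benjamini-Hochberg adjustment over all genes at a threshold of 0.05. Over all genes 0 (0%) passed, and 833 (3.76%) had an unadjusted p under 0.05. Of the 10 genes of the axis 0 passed and 1, Socs2, had an unadjusted p under 0.05. The groups did not overlap for 1 of the 10 (Socs2), against 7.83% of all genes, of which 4.32% were higher and 3.51% lower in Balb/cBy. Of the 10 genes 6 had a difference above 0 and 4 below, against 49.1% and 50.9% of all genes. Their median difference was 0.10, against -0.0028 for all genes, and it became -0.03 with Balb/cBy replicate 2 left out and 0.24 with Balb/cBy replicate 1 left out. An exact permutation test of 3 arrays against 3 cannot give a two-sided p below 0.1. Array medians lay between 7.66 and 7.74, and correlations between arrays between 0.972 and 0.989.

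**Figure D1:**
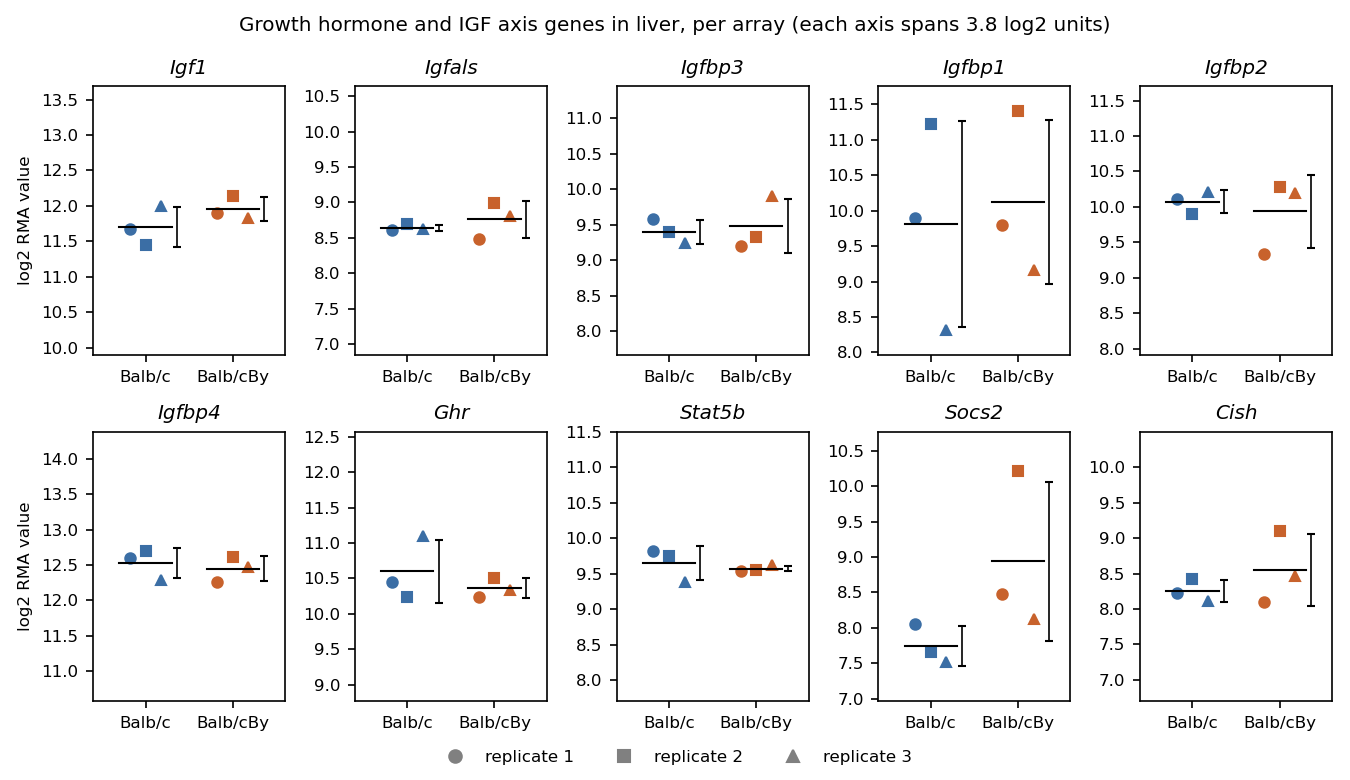
Log2 RMA value (vertical axis, 3.8 log2 units in every panel) of each of the 10 genes in the 3 Balb/c (blue) and 3 Balb/cBy (orange) arrays, with symbols for the replicate number, a line at the group mean and bars of 1 SD. Socs2 is the gene whose groups do not overlap, and Igfbp1 spans 8.32 to 11.40 across the mice.

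The ligand was slightly higher in Balb/cBy on average, without separation of the groups. Igf1, the main secreted effector of growth hormone, stood at 11.67, 11.44 and 12.00 in Balb/c replicates 1, 2 and 3 and at 11.90, 12.14 and 11.83 in the Balb/cBy arrays. Balb/c replicate 3 lay inside the Balb/cBy range, and the other Balb/c arrays lay below it. The means were 11.70 ± 0.28 and 11.96 ± 0.16 (SD, n = 3 each). The log2 difference was 0.25 (SE 0.15, limma adjusted p = 0.999), with an unadjusted 95% interval of -0.10 to 0.61, or 0.933-fold to 1.53-fold. The exact permutation p was 0.3. With Balb/c replicate 3 left out the difference was 0.40, with Balb/c replicate 2 left out it was 0.12, and with Balb/cBy replicate 2 left out it was 0.16.

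The partners of the circulating complex differed by less. Igfals, which encodes the acid-labile subunit made by hepatocytes, read 8.61, 8.69 and 8.62 in Balb/c and 8.49, 8.999 and 8.80 in Balb/cBy. The Balb/c arrays lay close together, with an SD of 0.043, and the Balb/cBy arrays lay on both sides of them, with an SD of 0.26. The difference was 0.12 (SE 0.13, adjusted p = 0.999 in limma). Dropping Balb/cBy replicate 2 gave 0.0036, and dropping Balb/cBy replicate 1 gave 0.26. Igfbp3, the binding protein of that complex, which in liver comes largely from non-parenchymal cells, read 9.57, 9.39 and 9.24 in Balb/c and 9.20, 9.33 and 9.91 in Balb/cBy. Balb/cBy replicate 3 was the highest array, and the other Balb/cBy arrays lay at the level of the Balb/c arrays or below. Its difference was 0.08 (SE 0.19), and it turned to -0.14 when Balb/cBy replicate 3 was dropped and to -0.0043 when Balb/c replicate 3 was dropped. In whole liver, fewer cells of a type and less RNA per cell cannot be told apart.

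The binding proteins outside that complex varied between mice more than between substrains. Igfbp1 read 9.90, 11.22 and 8.32 in Balb/c and 9.80, 11.40 and 9.16 in Balb/cBy. In each substrain replicate 2 was high, replicate 1 was in the middle and replicate 3 was low. Whether same-numbered mice share more than the number was not tested. The means were 9.81 ± 1.46 and 10.12 ± 1.15 (SD, n = 3 each). The difference was 0.31 (SE 0.75) with an unadjusted 95% interval of -1.43 to 2.04, or 0.372-fold to 4.12-fold. Of all genes, 0.0271% had a larger spread within the groups. The sign turned when Balb/c replicate 3 (-0.44) or Balb/cBy replicate 2 (-0.33) was dropped. The difference became 1.01 when Balb/c replicate 2 was dropped, 0.79 when it was Balb/cBy replicate 3, and 0.47 when it was Balb/cBy replicate 1.

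Igfbp2, another binding protein of plasma, read 10.11, 9.89 and 10.21 in Balb/c and 9.34, 10.27 and 10.19 in Balb/cBy. Balb/cBy replicate 1 stood below all others, and the remaining Balb/cBy arrays lay near the top of the Balb/c range. The difference of -0.14 (SE 0.23) became 0.16 without that array, and it was -0.31 when Balb/cBy replicate 2 was dropped and -0.27 when Balb/cBy replicate 3 was. Dropping Balb/c replicate 2 gave -0.23, and dropping Balb/c replicate 3 gave -0.07. Igfbp4, which binds IGFs and is cleaved by the protease PAPP-A, read 12.59, 12.69 and 12.28 in Balb/c and 12.27, 12.61 and 12.48 in Balb/cBy. Its groups overlapped almost fully, with a difference of -0.07 (SE 0.14) that became -0.19 when Balb/c replicate 3 was dropped and -0.15 when Balb/cBy replicate 2 was. It turned to 0.01 when Balb/c replicate 2 was dropped and to 0.02 when Balb/cBy replicate 1 was.

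The receptor and its transcription factor had negative differences within their error. Ghr, the growth hormone receptor, read 10.46, 10.24 and 11.10 in Balb/c and 10.23, 10.51 and 10.34 in Balb/cBy. Balb/c replicate 3 stood 0.59 above every other array, and the remaining arrays of both substrains lay between 10.23 and 10.51. The difference of -0.24 (SE 0.21, limma adjusted p = 0.999) was 0.0144 without that array and -0.42 when Balb/c replicate 2 was dropped. Stat5b, the factor that carries the signal to the nucleus, read 9.82, 9.75 and 9.38 in Balb/c and 9.54, 9.56 and 9.62 in Balb/cBy. The Balb/cBy arrays lay close together, with an SD of 0.041, inside the Balb/c range. The difference was -0.08 (SE 0.13), with an unadjusted 95% interval of -0.37 to 0.21, and it became -0.21 when Balb/c replicate 3 was dropped, -0.03 when it was Balb/c replicate 2 and 0.0072 when it was Balb/c replicate 1. Its paralog Stat5a, named here after its values were seen, had a difference of -0.05 (SE 0.10), and how far the probe sets tell the paralogs apart was not tested.

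**Figure D2:**
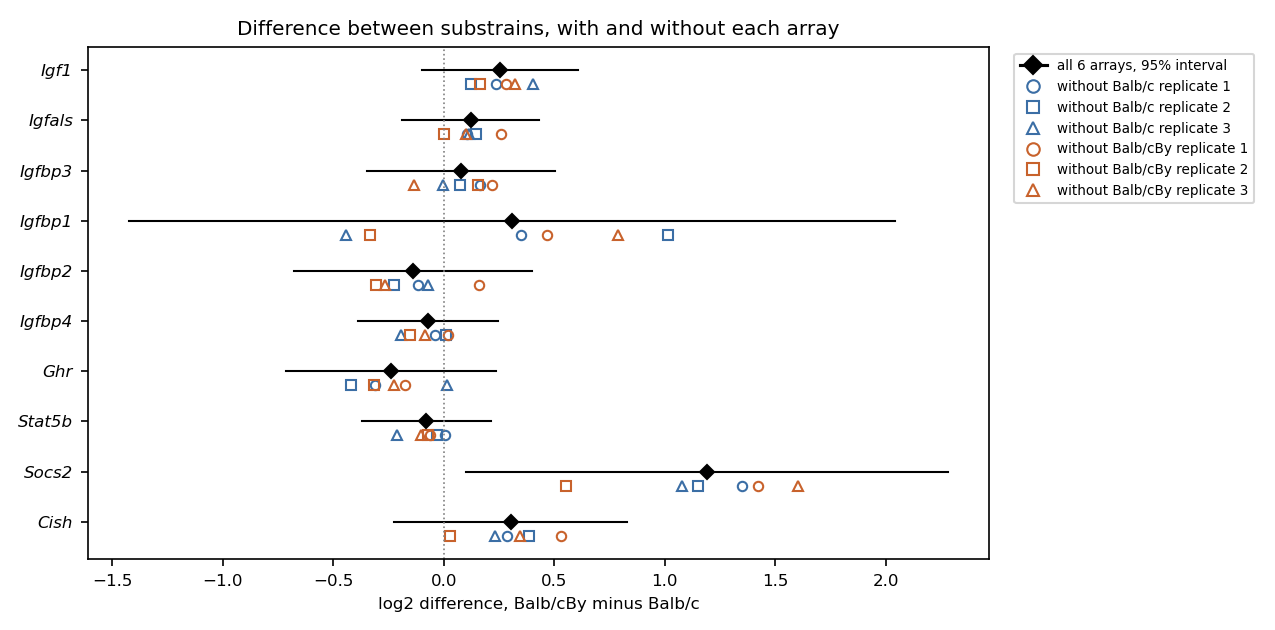
Log2 difference, Balb/cBy minus Balb/c (horizontal axis), of the 10 genes, with black diamonds and unadjusted 95% intervals from limma over all 6 arrays, and open symbols for the difference without each array. The interval of Socs2, from 0.10 to 2.28, is the one above 0, and its value without Balb/cBy replicate 2 is 0.55.

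The feedback inhibitors both had higher means in Balb/cBy, and in the probe sets taken both were highest in the same mouse. Socs2 read 8.06, 7.66 and 7.51 in Balb/c and 8.48, 10.22 and 8.12 in Balb/cBy. Every Balb/cBy array lay above every Balb/c array, but by 0.06 at the nearest, whereas Balb/cBy replicate 2 stood 1.74 above the next array. The means were 7.75 ± 0.28 and 8.94 ± 1.12 (SD, n = 3 each). The log2 difference was 1.19 (SE 0.47), or 2.29-fold, with an unadjusted 95% interval of 1.07-fold to 4.87-fold. It did not pass (limma adjusted p = 0.999, unadjusted p = 0.0355), and its exact permutation p was 0.1. Without Balb/cBy replicate 2 the difference was 0.55 (limma adjusted p = 0.9999, unadjusted p = 0.0215), and the groups still did not overlap, as for 12.9% of all genes in that setting. Weighting the arrays gave 0.75, and an ordinary test without moderation gave an unadjusted p of 0.149.

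Cish, an SH2-domain inhibitor of cytokine receptors that STAT5 induces, read 8.23, 8.42 and 8.11 in Balb/c and 8.10, 9.10 and 8.47 in Balb/cBy. Balb/cBy replicate 2 was again the highest, 0.63 above the next, while Balb/cBy replicate 1 was the lowest of all arrays. The difference was 0.30 (SE 0.23, limma adjusted p = 0.999), with an unadjusted 95% interval of -0.23 to 0.83. It became 0.03 when Balb/cBy replicate 2 was dropped and 0.53 when Balb/cBy replicate 1 was.

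The second probe sets of these genes differed from the first in size of difference. The other Socs2 probe set read 8.24, 8.25 and 8.21 in Balb/c and 8.30, 8.41 and 8.31 in Balb/cBy. The order of the groups and the highest array were the same, but the difference was 0.11, compared with 1.19, and the mean of both probe sets gave 0.65. The choice between them was narrow, since their means over all arrays were 8.34 and 8.29. By number, the probe set taken has 0 of its 10 nearest neighbours on the chromosome where RefSeq places Socs2, and it lies between those of Gm16497 and Gm5432. The other lies between those of Cradd and Mrpl42, with 10 of 10 on the chromosome of Socs2. Whether the probe set taken reads Socs2 itself or a related sequence was not tested, and the Socs2 value carries that limit. The other Cish probe set read 8.16, 8.43 and 8.19 in Balb/c and 8.17, 8.59 and 8.66 in Balb/cBy, a difference of 0.22, with the highest value in Balb/cBy replicate 3.

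**Figure D3:**
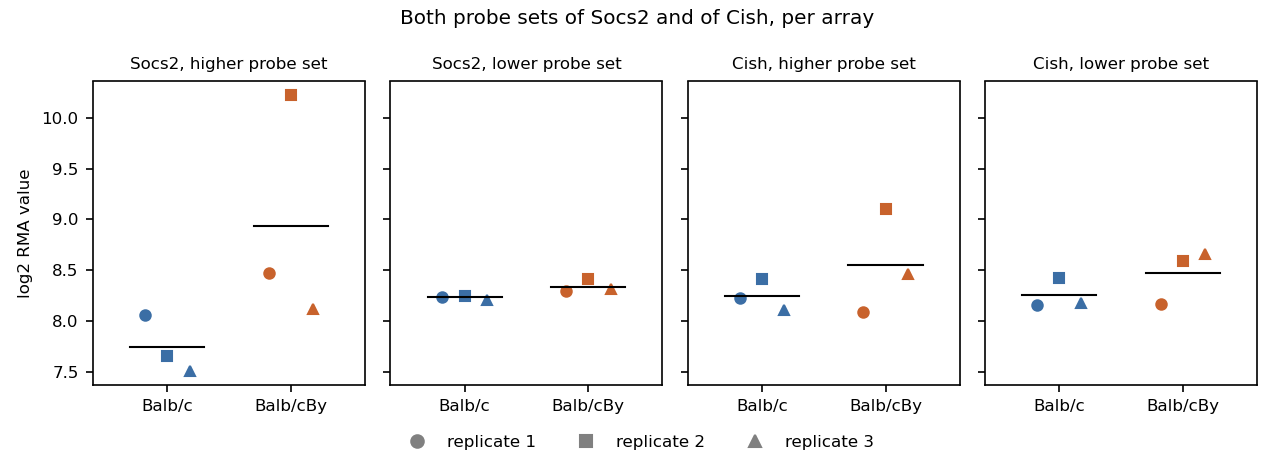
Log2 RMA value (vertical axis) per array of both probe sets of Socs2 and of Cish, with Balb/c in blue, Balb/cBy in orange, a symbol for each replicate number and a line at the group mean. The higher Socs2 probe set spans 7.51 to 10.22 and the lower one 8.21 to 8.41.

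Set side by side, the genes of the axis did not move as a block with substrain. Balb/cBy replicate 2 had the highest value of 6 of the 10 genes (Igf1, Igfals, Igfbp1, Igfbp2, Socs2 and Cish), while over all genes it was the highest array for 21.7%. Balb/cBy replicate 1 had the lowest value of 6 of them (Igfals, Igfbp3, Igfbp2, Igfbp4, Ghr and Cish), against 14.7% of all genes. Those arrays share a substrain. Balb/c replicate 3 combined the highest Ghr with the lowest Igfbp1, Stat5b and Socs2. Without Balb/cBy replicate 1 the groups did not overlap for Socs2, Cish and Igfals, where 26.9% of all genes did not overlap, and without Balb/c replicate 3 for Socs2, Igf1 and Stat5b, where 19.6% did not.

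**Figure D4:**
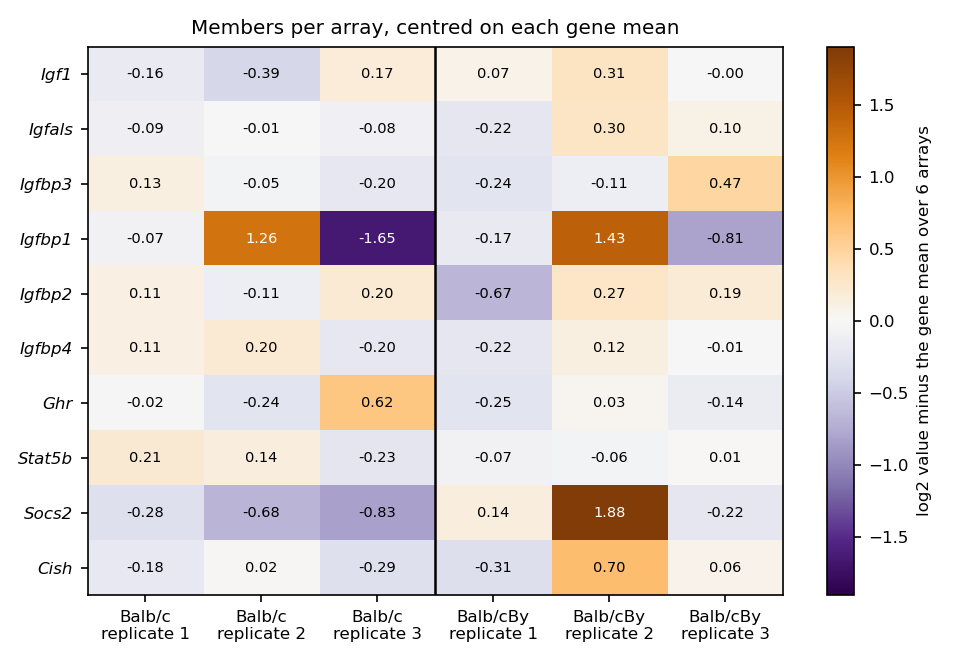
Log2 value minus the gene's mean over the 6 arrays (colour and printed number) for the 10 genes (rows) in each array (columns, Balb/c left and Balb/cBy right of the line). Balb/cBy replicate 2 holds the highest values of Socs2 (1.88), Igfbp1 (1.43) and Cish (0.70), and Balb/c replicate 3 the lowest of the plot, -1.65 for Igfbp1.

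Genes whose pattern over the 6 arrays was nearest to Socs2 were found by the root mean square difference between centred log2 values. Onecut1, a liver transcription factor gene, was nearest at 0.29, next to a spread of Socs2 itself of 0.90 on the same measure. Onecut1 read 9.71, 9.26 and 9.54 in Balb/c and 9.70, 11.38 and 9.73 in Balb/cBy. Ugt2b37, a glucuronosyltransferase gene, followed at 0.41 with a difference of 1.15 (SE 0.55), and Apobec1, which encodes the editing enzyme of apolipoprotein B mRNA, at 0.41 with a difference of 0.67 (SE 0.27). All had their highest value in Balb/cBy replicate 2, and none passed (limma adjusted p = 0.999 for each). Without that array the differences were 0.21 for Onecut1, 0.47 for Ugt2b37 and 0.31 for Apobec1. For Igfbp1 the nearest genes were the immediate-early phosphatase gene Dusp1 at 0.66, the stress-inducible gene Gadd45b at 0.68 and the small nucleolar RNA gene Snord13 at 0.72, next to a spread of Igfbp1 of 1.08. Dusp1 read 11.14, 11.69 and 10.11 in Balb/c and 10.27, 11.27 and 10.60 in Balb/cBy. In both substrains Dusp1 and Igfbp1 were highest in replicate 2.

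Other genes of growth hormone signalling did not pass either, 0 of 14 measured, with 8 higher and 6 lower and a median difference of 0.04. With Balb/cBy replicate 2 left out, 7 were higher and 7 lower, with a median of 0.02. Stat3, a sister factor used by interleukin-6, had the smallest p of them. It read 10.62, 11.12 and 10.63 in Balb/c and 11.11, 11.16 and 11.08 in Balb/cBy, a difference of 0.32 (SE 0.14) that was 0.49 without Balb/c replicate 2. Balb/c replicate 2 lay among the Balb/cBy arrays, and the other Balb/c arrays lay below them. Ptpn11, the phosphatase SHP2, differed by 0.23 (SE 0.13), and the insulin receptor substrate Irs1 by 0.12 (SE 0.10). Dropping Balb/c replicate 2 gave 0.13 for Ptpn11, and dropping Balb/c replicate 1 gave 0.05 for Irs1. Jak2, the kinase bound to the receptor, was named after its values were seen. It read 7.90, 7.76 and 8.75 in Balb/c and 8.16, 7.90 and 7.94 in Balb/cBy. Its highest array was Balb/c replicate 3, which was also the highest for Ghr.

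Among other IGF ligands, receptors, binding proteins and proteases 0 of 12 passed, with 7 higher, 5 lower and a median of 0.03. Igf2r, the receptor that clears IGF2, differed by 0.23 (SE 0.14) and by 0.09 without Balb/cBy replicate 2. Pappa, the protease that cleaves IGFBP4, differed by -0.15 (SE 0.11) and by -0.04 without Balb/c replicate 2. Igfbp7, a low-affinity relative of the binding proteins, differed by 0.15 (SE 0.12) and by 0.045 without Balb/c replicate 3. Igf1r, the receptor of IGF1, was named after its values were seen, and it differed by 0.05 (SE 0.11).

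Liver genes of the male pattern, which pulsatile growth hormone maintains, did not pass, 0 of 17 measured, with 12 higher and 5 lower and a median of 0.08. Groups did not overlap for 2 of these 17, Serpina1e and Bcl6, next to 7.83% of all genes. Serpina1e, an antitrypsin isoform of a family with near-identical copies, read 11.22, 11.17 and 11.42 in Balb/c and 11.54, 11.48 and 11.54 in Balb/cBy, a difference of 0.26 (SE 0.10, limma adjusted p = 0.999). Bcl6, a repressor that opposes STAT5 at shared sites, read 8.23, 9.69 and 9.67 in Balb/c and 9.96, 9.81 and 10.08 in Balb/cBy. Its difference of 0.75 (SE 0.35) was 0.27 without Balb/c replicate 1, the array that stood far below the others, and 1.18 with arrays weighted. Nudt7, a peroxisomal hydrolase of coenzyme A, differed by 0.55 (SE 0.27), by 0.29 if Balb/c replicate 2 was dropped and by 0.87 if Balb/c replicate 3 was. Of the female pattern 0 of 16 passed, with 6 higher, 10 lower and a median of -0.04, or -0.065 when Balb/cBy replicate 2 was dropped. Groups did not overlap for 2 of these 16, Sult3a1 and Hao2. Sult3a1, a sulfotransferase, differed by 0.29 (SE 0.11) at low values of 4.48 to 5.01. Hao2, a peroxisomal oxidase, differed by -0.19 (SE 0.11) and by -0.10 without Balb/cBy replicate 2. Cyp17a1, a steroid hydroxylase, differed by 0.31 (SE 0.19), by 0.10 if Balb/cBy replicate 3 was dropped and by 0.49 if Balb/cBy replicate 1 was.

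Genes of the insulin and fasting response, listed because Igfbp1 belongs to that programme, did not pass, 0 of 13 measured, with 5 higher, 8 lower and a median of -0.09. Fgf21, a fasting-induced hormone, read 8.27, 8.42 and 8.35 in Balb/c and 8.20, 8.21 and 8.01 in Balb/cBy, and its groups did not overlap. Its difference was -0.21 (SE 0.10, limma adjusted p = 0.999). Lpin1, a phosphatidate phosphatase induced by fasting, read 10.99, 9.27 and 9.54 in Balb/c and 9.42, 11.45 and 10.95 in Balb/cBy, a difference of 0.68 (SE 0.57) that was 0.25 with Balb/cBy replicate 2 dropped and 1.27 with Balb/cBy replicate 1 dropped. Lpin1 varied widely among mice of each substrain, with SDs of 0.93 and 1.06, and its order of mice was not that of Igfbp1. Sesn1, a FOXO target, differed by -0.16 (SE 0.18), by -0.29 if Balb/cBy replicate 2 was dropped and by 0.028 if Balb/cBy replicate 1 was.

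The hepatocyte markers differed by a median of 0.03, with 9 of 12 higher and 3 lower in Balb/cBy. Alb, serum albumin, lay between 14.16 and 14.22 in all arrays. The log2 of the summed linear values of these 12 markers was 16.60 to 16.68 in Balb/c and 16.62 to 16.73 in Balb/cBy. Markers of other cell types were not level in every case. Stellate cell and fibroblast markers were higher in Balb/cBy for 11 of 12 (median 0.18, summed level 13.27 to 13.70 against 13.55 to 13.94). Lymphocyte markers were lower for 9 of 9 (median -0.225, summed level 10.84 to 11.05 against 10.70 to 10.79). Macrophage markers were higher for 8 of 12 (median 0.10, summed level 13.24 to 14.03 against 13.62 to 14.04) and endothelial markers for 7 of 12 (median 0.05, summed level 13.59 to 13.84 against 13.66 to 13.87). Cholangiocyte markers were higher for 2 of 5 (median -0.05, summed level 10.18 to 10.29 against 10.11 to 10.40) and adipocyte markers for 3 of 6 (median 0.12, summed level 13.93 to 14.06 against 13.70 to 13.97). The summed level of the adipocyte list lay mainly in its highest gene, Car3. That gene read 13.55 to 13.92 and differed by -0.21 (SE 0.10), so the sum says little about the other adipocyte markers. None of these markers passed, and their part in the values of the axis, Igfbp3 included, was not tested.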

How the data were processed

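The authors deposited 1 log2 value per probe set and array. The submitters' processing notes name RMA, and the log2 scale was inferred from the range of the values. RMA equalises array distributions and summarises the probes of a set, which compresses low values and hides a global shift. No version of RMA is given in the sources used here. There were 41345 probe sets on 6 arrays. GEO's platform annotation gave 1 symbol for 23521, several for 1814 and none here for 16010. A gene with several probe sets (1082 genes) was read from the one with the highest mean, giving 22180 genes. All 10 symbols of the axis matched RefSeq by gene identifier.

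Balb/cBy was compared with Balb/c across all genes with limma 3.58.1 (lmFit, eBayes) in R 4.3.3, without a filter on low values or a covariate, with adjustment over all genes. The spread between 3 arrays a group limits the precision. The limma p-values rest on the spread between these samples, moderated for each gene by the spread over all genes. The fit was tested on simulated data. Genes of each companion list were named if they passed, and otherwise as the 3 with the smallest p; exceptions are stated. Some genes of the companion and marker lists were not analysed here. The genes and lists were chosen with earlier results of these data known. Alternatives were a replicate block, recentring, repeated quantile normalization, 2 filters, averaged probe sets, another variance model, array weights, no moderation, and leaving out each array. The lower probe set of Socs2 and Cish was added after the data were seen.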

Additional observations from a re-analysis of the deposited data

How the results depend on the processing

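None of the 10 genes of the axis passed under any of the 16 alternatives, where the smallest limma adjusted p was 0.582. Over all genes the count of 0 became 12 with array weights, and it lay between 0 and 3 when arrays were left out one at a time. The count of genes of the axis without overlap was then between 1 and 3. The share of all genes without overlap was then between 12.9% and 26.9%, against 7.83% with all arrays. With array weights the differences of Igfbp1 and Igfbp2 turned to -0.19 and 0.0245. Without single arrays the difference ranged from -0.14 to 0.22 for Igfbp3, from -0.44 to 1.01 for Igfbp1, from -0.31 to 0.16 for Igfbp2, from -0.19 to 0.0193 for Igfbp4, from -0.42 to 0.0144 for Ghr, from -0.21 to 0.0072 for Stat5b and from -0.29 to 0.028 for Sesn1. Igf1, Igfals, Socs2 and Cish kept their sign under all 16 alternatives. Averaged or lower probe sets could alter only Socs2 and Cish, since the other genes of the axis have a single probe set. Of 160 values for the 10 genes, 149 kept their sign and their side of the threshold. The sign could not turn under the replicate block, the filters, the other variance model or no moderation, which leave the difference itself unchanged. With the replicate number as a block 0 genes of the axis and 0 of all genes passed. Deviations of same-numbered arrays correlated at -0.32, -0.20 and -0.23, below those of other pairs. With the block the SE of the Igfbp1 difference was 0.19, against 0.75 without it. Igfbp1 was named here after its order of mice was seen. The block raised the SE for Igf1 (0.15 to 0.18), Igfbp3, Igfbp4 and Stat5b, and lowered it for the other genes of the axis. Whether same-numbered arrays share more than the number was not tested. The causes of these changes were not tested. Signal over background is not given for these arrays.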
